A study of Mus musculus with 2 samples.

Results

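The genes described here are 10 transcription factors of the neural crest and of epithelial-to-mesenchymal transition (EMT), namely Sox9, Sox10, Foxd3, Tfap2a, Tfap2b, Snai1, Snai2, Twist1, Zeb2 and Ets1. They were taken by gene symbol from a table of 24340 genes, and all 10 were found. RNA-seq was performed on trunk tissue dissected from mouse embryos at E8.5, with 1 wild-type sample and 1 sample homozygous for a knockout of Aldh1a2 (also called Raldh2), written here as Aldh1a2-/-. Per the study's methods each genotype was represented by 2 trunks, embryos came from matings of heterozygotes, and the head, anterior hindbrain, pharynx, heart and caudal progenitor zone had been cut away, so that the tissue is a mixture of neural tube, somites, lateral plate and surface layers in which neural crest is a minority. With 1 sample per genotype there is no measure of replicate error and no test could be made; all differences below compare these libraries, and fewer cells of a type cannot be told apart from less RNA per cell.

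Aldh1a2 encodes the enzyme that makes retinoic acid in the early trunk, and retinoic acid acts through nuclear receptors bound to DNA. Neural crest cells form at the border of the neural plate, where genes such as Pax3, Msx1 and Zic1 are active; border cells then switch on specifier genes (Foxd3, Sox9, Sox10, the Tfap2 genes), and Snail, Twist and Zeb factors repress epithelial genes, above all the E-cadherin gene Cdh1, as cells leave the neuroepithelium and migrate. The crest goes on to form peripheral neurons, glia and pigment cells. Several of these factors have other sites of expression in the trunk: Sox9 marks sclerotome, Twist1 and Snai2 are active in somitic and lateral plate mesenchyme, Ets1 in endothelium, Zeb2 in neural tube and mesoderm, Snai1 in mesoderm leaving the primitive streak, and Tfap2a in surface ectoderm.

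Snail and Zeb proteins bind the E-box CAGGTG, which reads CACCTG on the other strand. The windows of 250 bases before the transcription start are shown for Snai1, the member that was higher in Aldh1a2-/-, and for 3 epithelial genes with the E-box, of which Crb3 (a polarity protein) and Ocln (a tight junction protein) were higher in Aldh1a2-/- while Epcam (an epithelial adhesion protein) was not past a cutoff. They were read 5′ to 3′ on the strand of the gene from RefSeq promoters on GRCm38.p6 (mm10), with each E-box in capitals: Snai1 at chr2:167537945-167538194 (+), Crb3 at chr17:57061951-57062200 (+), Ocln at chr13:100552499-100552748 (-, the second of its listed starts, the first having no E-box) and Epcam at chr17:87635729-87635978 (+).
Snai1: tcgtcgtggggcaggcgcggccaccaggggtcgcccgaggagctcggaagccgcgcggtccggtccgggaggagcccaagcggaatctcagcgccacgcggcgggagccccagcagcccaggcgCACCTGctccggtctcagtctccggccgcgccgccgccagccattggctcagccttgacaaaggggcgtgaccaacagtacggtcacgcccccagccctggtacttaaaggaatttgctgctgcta
Crb3: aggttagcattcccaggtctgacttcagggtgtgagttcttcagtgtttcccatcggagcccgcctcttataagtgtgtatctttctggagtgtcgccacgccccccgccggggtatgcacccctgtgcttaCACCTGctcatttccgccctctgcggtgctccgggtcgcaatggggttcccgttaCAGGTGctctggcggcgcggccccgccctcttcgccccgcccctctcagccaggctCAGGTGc
Ocln: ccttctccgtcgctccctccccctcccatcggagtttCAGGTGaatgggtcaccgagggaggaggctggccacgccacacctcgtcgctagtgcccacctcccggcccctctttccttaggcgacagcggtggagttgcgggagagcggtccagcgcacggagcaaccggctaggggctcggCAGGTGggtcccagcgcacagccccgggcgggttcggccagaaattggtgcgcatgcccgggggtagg
Epcam: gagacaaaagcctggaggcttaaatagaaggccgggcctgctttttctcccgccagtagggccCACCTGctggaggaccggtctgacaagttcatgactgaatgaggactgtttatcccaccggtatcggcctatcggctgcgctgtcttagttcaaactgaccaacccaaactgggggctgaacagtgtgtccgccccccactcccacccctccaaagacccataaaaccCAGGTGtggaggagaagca
Counted back from the start, the first base of the E-box lay at -126 in Snai1, at -118, -63 and -7 in Crb3, at -213 and -68 in Ocln and at -187 and -19 in Epcam. RefSeq promoters were matched for 6 of the 10 members (Foxd3, Tfap2a, Tfap2b, Snai1, Twist1 and Zeb2), and only Snai1 of these 6 held the E-box, beside 5252 of 27025 genes (19.4%) of the whole promoter table. None of the 6 held a direct repeat of the retinoic acid response element type (spacing of 1, 2 or 5 bases) in this window, which was found in 136 genes (0.503%) of the table. A match is a description of the letters only, and a window without one says nothing about binding elsewhere in the gene.

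Expression values are FPKM, which scales fragments to transcript length and to library size. Genes above 0.5 FPKM in both samples, 9506 in all, were treated as measured, and a gene is called lower or higher in Aldh1a2-/- where its log2 ratio of FPKM (Aldh1a2-/- over wild-type) lay beyond -0.85 or 0.85, the cutoffs used in the study. Among all measured genes 4330 (45.6%) were past a cutoff, 2087 (22.0%) lower and 2243 (23.6%) higher, so that a position past a cutoff is itself frequent in this comparison of single libraries. The knocked-out gene Aldh1a2 was at 128 FPKM in wild-type against 11.7 FPKM in Aldh1a2-/-. From the step between low values, the depth was put at about 27900000 fragments for wild-type and 28400000 for Aldh1a2-/-; 30 of 58 and 29 of 59 low values lay within 0.1 of a whole number of fragments, so fragment numbers and the intervals drawn from them are approximate. Of the 11376 genes that exceeded 0.5 FPKM in wild-type, 1464 (12.9%) had a listed value of exactly 0 in Aldh1a2-/-, a share that was 44.3% for genes of 0.5 to 1 FPKM, 37.1% from 1 to 2 FPKM, 24.9% from 2 to 5 FPKM and 1.41% from 20 to 50 FPKM. In the other direction, 21.9% of genes at 0.5 to 1 FPKM in Aldh1a2-/- were listed at 0 in wild-type. That share was 15.3% from 1 to 2 FPKM, 11.1% from 2 to 5 FPKM and 1.64% from 20 to 50 FPKM. In all, 13051 genes were listed at 0 in Aldh1a2-/- and 11859 in wild-type.

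Of the 10 crest and EMT factors, 7 were measured in both samples and 3 (Sox10, Foxd3 and Tfap2b) were listed at 0 in Aldh1a2-/-. Of the 7, Sox9, Ets1 and Twist1 were lower, Snai1 was higher, and Tfap2a, Snai2 and Zeb2 lay between the cutoffs; 4 of 7 past a cutoff stands beside 45.6% of all measured genes. The median log2 ratio of the 7 was -0.63, beside 0.02 for all measured genes. Summed over the 10 genes, FPKM was 126 in wild-type and 68.5 in Aldh1a2-/-, of which Twist1 alone made up 38.4% and 32.7%, and without Twist1 the sums were 77.8 and 46.1 FPKM.

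**Figure D1:**
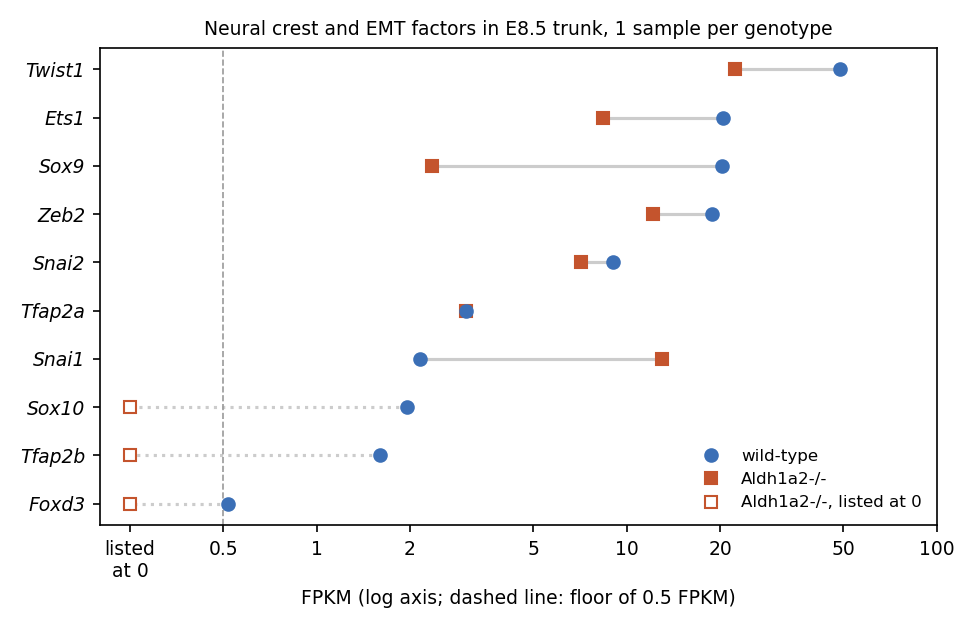
FPKM of the 10 crest and EMT factors in the wild-type and the Aldh1a2-/- sample (1 value each, no error bars possible). Sox9, Ets1 and Twist1 sit lower in Aldh1a2-/-, Snai1 moves from 2.15 to 13.0 FPKM, Tfap2a keeps its place near 3 FPKM, and Sox10, Foxd3 and Tfap2b are listed at 0 in Aldh1a2-/-.

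The order of the factors differed between the samples. In wild-type, Twist1 (48.6 FPKM) stood first, above 84.9% of the genes over 0.5 FPKM. It was followed by Ets1 (20.4 FPKM), Sox9 (20.3 FPKM) and Zeb2 (18.8 FPKM); 95% Poisson intervals from the estimated fragments, which cover counting error only, ran from 19.6 to 21.1 FPKM for Ets1, 19.5 to 21.1 for Sox9 and 18.3 to 19.4 for Zeb2, so that Ets1 and Sox9 overlapped and Zeb2 lay just under both. Snai2 (9.03 FPKM), Tfap2a (3.02 FPKM), Snai1 (2.15 FPKM), Sox10 (1.95 FPKM), Tfap2b (1.61 FPKM) and Foxd3 (0.519 FPKM) came after, with overlapping intervals for Snai1 and Sox10 and for Sox10 and Tfap2b. In Aldh1a2-/- the order was Twist1 (22.4 FPKM), Snai1 (13.0 FPKM), Zeb2 (12.2 FPKM), Ets1 (8.38 FPKM), Snai2 (7.13 FPKM), Tfap2a (3.03 FPKM) and Sox9 (2.36 FPKM), where Snai1 and Zeb2 overlapped. Sox9 thus stood above 66.5% of the genes over 0.5 FPKM in wild-type and above 12.7% in Aldh1a2-/-, while Snai1 stood above 14.3% and 49.1%.

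Sox9 and Sox10 are SoxE factors; Sox9 acts early in the crest and in cartilage precursors, and Sox10 maintains migrating crest, glia and melanoblasts. Sox9 (GENCODE, mm10, chr11:112782224-112787760, + strand) was at 20.3 FPKM in wild-type against 2.36 FPKM in Aldh1a2-/-, 8.61-fold lower (log2 ratio -3.11). This was the farthest from 0 of the 7 measured factors, and 2.07% of all measured genes had a lower ratio; of the 1794 measured genes of like mean level (within 0.5 on the log2 scale), 7.02% lay at least as far from 0 in either direction. Sox10 (chr15:79154908-79165240, - strand) was at 1.95 FPKM in wild-type, an estimated 151 fragments (95% Poisson interval 128 to 177), and was listed at 0 in Aldh1a2-/-. The within-sample ratio of Sox9 to Sox10 was 10.4 in wild-type, and the third SoxE gene, Sox8, was listed at 0 in both samples.

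Foxd3 is a forkhead factor that specifies crest and is also known from pluripotent epiblast. Foxd3 (chr4:99656299-99658622, + strand) was at 0.519 FPKM in wild-type, just over the 0.5 FPKM minimum, with an estimated 34 fragments (interval 23.5 to 47.5), and was listed at 0 in Aldh1a2-/-. Sox10, Foxd3 and Tfap2b, which are widely used as crest markers, were thus all near the bottom of the wild-type range, above 13.0%, 0.281% and 10.7% of the genes over 0.5 FPKM. Together they summed to 4.08 FPKM in wild-type, and at wild-type levels of 0.5 to 2 FPKM between 37.1% and 44.3% of all genes were listed at 0 in Aldh1a2-/-. At the same levels in Aldh1a2-/-, between 15.3% and 21.9% of genes were listed at 0 in wild-type, so zeros were more frequent in the Aldh1a2-/- library. An exact 0 in this table is not read here as absence of the transcript.

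The Tfap2 genes encode AP-2 factors of surface ectoderm, neural plate border and crest. Tfap2a (chr13:40715302-40738376, - strand) was at 3.02 FPKM in wild-type against 3.03 FPKM in Aldh1a2-/- (log2 ratio 0.00), whereas 70.0% of measured genes at its level were past a cutoff. Tfap2b (chr1:19208914-19238576, + strand) was at 1.61 FPKM in wild-type, an estimated 262 fragments (interval 231 to 296), and was listed at 0 in Aldh1a2-/-. Their relative Tfap2c, an AP-2 factor shared by early ectoderm and germ cells, was at 5.34 FPKM in wild-type against 1.20 FPKM in Aldh1a2-/- (log2 ratio -2.15), so that the most abundant of the 3 was Tfap2c in wild-type and Tfap2a in Aldh1a2-/-. The AP-2 genes Tfap2d and Tfap2e were listed at 0 in both.

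Snai1 and Snai2 encode the zinc finger repressors Snail and Slug, which trigger EMT in gastrulation and in the crest. Snai1 (chr2:167538195-167542814, + strand) was at 2.15 FPKM in wild-type against 13.0 FPKM in Aldh1a2-/-, 6.04-fold higher (log2 ratio 2.59), with 95.6% of measured genes at a lower ratio and 15.5% of the 1590 genes of like level at least as far from 0. Estimated fragments were 97 (interval 78.7 to 118) and 598 (interval 551 to 648). Snai2 (chr16:14705852-14709385, + strand) was at 9.03 FPKM in wild-type against 7.13 FPKM in Aldh1a2-/- (log2 ratio -0.34), between the cutoffs. Snai2 was therefore 4.19 times Snai1 in wild-type and Snai1 was 1.82 times Snai2 in Aldh1a2-/-, and the summed level of both genes was 11.2 and 20.1 FPKM.

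Twist1, a basic helix-loop-helix factor of mesenchyme and cranial crest, was at 48.6 FPKM in wild-type against 22.4 FPKM in Aldh1a2-/- (chr12:33957671-33959829, + strand), 2.17-fold lower (log2 ratio -1.12). Of the genes at its level, 33.2% were past a cutoff and 21.0% lay at least as far from 0. Its relative Twist2, a factor of dermis and other mesenchyme, was at 4.06 FPKM in wild-type, where Twist1 was 12.0 times as high, and was listed at 0 in Aldh1a2-/-. Zeb2 (chr2:44983632-45117395, - strand), a zinc finger repressor of Cdh1 needed for crest formation, was at 18.8 FPKM in wild-type against 12.2 FPKM in Aldh1a2-/- (log2 ratio -0.63), between the cutoffs. Its relative Zeb1 was at 21.2 FPKM and 8.75 FPKM (log2 ratio -1.28), past the cutoff, and the ratio of Zeb1 to Zeb2 was 1.13 in wild-type and 0.717 in Aldh1a2-/-. Zeb2 shares 653 of its 19942 exon bases with the antisense gene Zeb2os, listed at 9.40 FPKM in wild-type and at 0 in Aldh1a2-/-; whether the counting used strand is not given in the sources used here, so reads of the shared bases could be assigned to either gene.

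Ets1, an ETS factor of delaminating cranial and cardiac crest and of endothelium, was at 20.4 FPKM in wild-type against 8.38 FPKM in Aldh1a2-/- (chr9:32636221-32757820, + strand), 2.43-fold lower (log2 ratio -1.28). Of the genes at its level, 46.9% were past a cutoff and 29.6% lay at least as far from 0. Ets2, its closest relative, stood in the opposite direction, with 12.3 FPKM in wild-type against 46.4 FPKM in Aldh1a2-/- (log2 ratio 1.92), so that Ets1 was 1.65 times Ets2 in wild-type and Ets2 was 5.54 times Ets1 in Aldh1a2-/-.

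**Figure D2:**
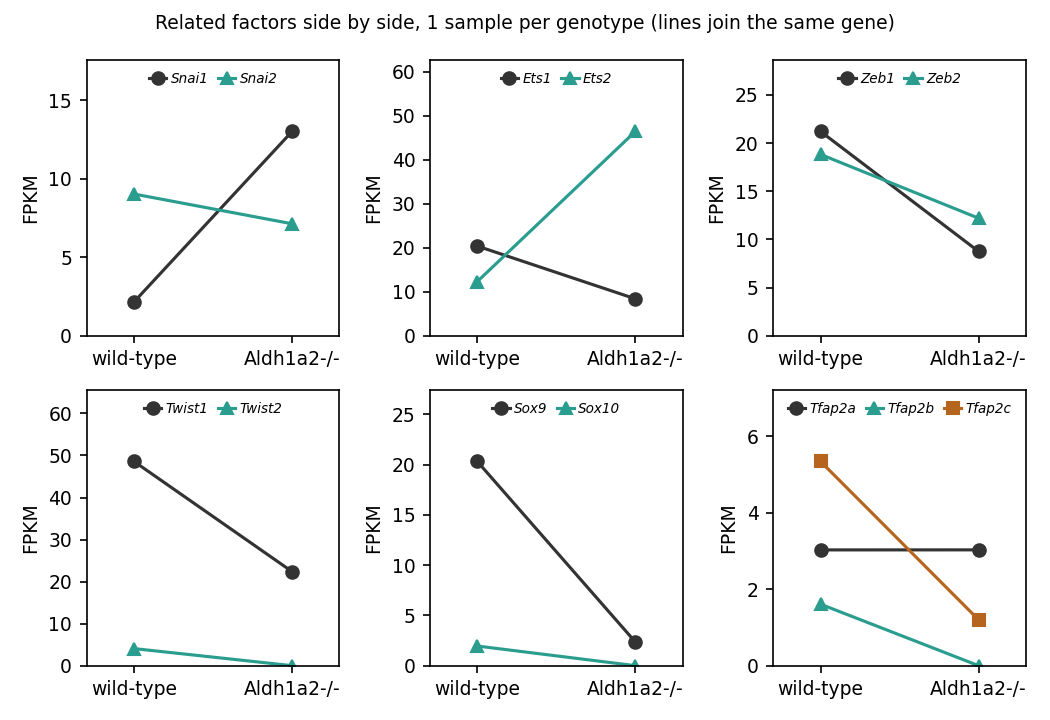
FPKM of each factor beside its relatives in the wild-type and the Aldh1a2-/- sample, lines joining the 2 values of a gene. The lines cross for Snai1 and Snai2, for Ets1 and Ets2, for Zeb1 and Zeb2 and for Tfap2a and Tfap2c, while Twist1 and Sox9 are above their relatives in both samples.

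**Figure D3:**
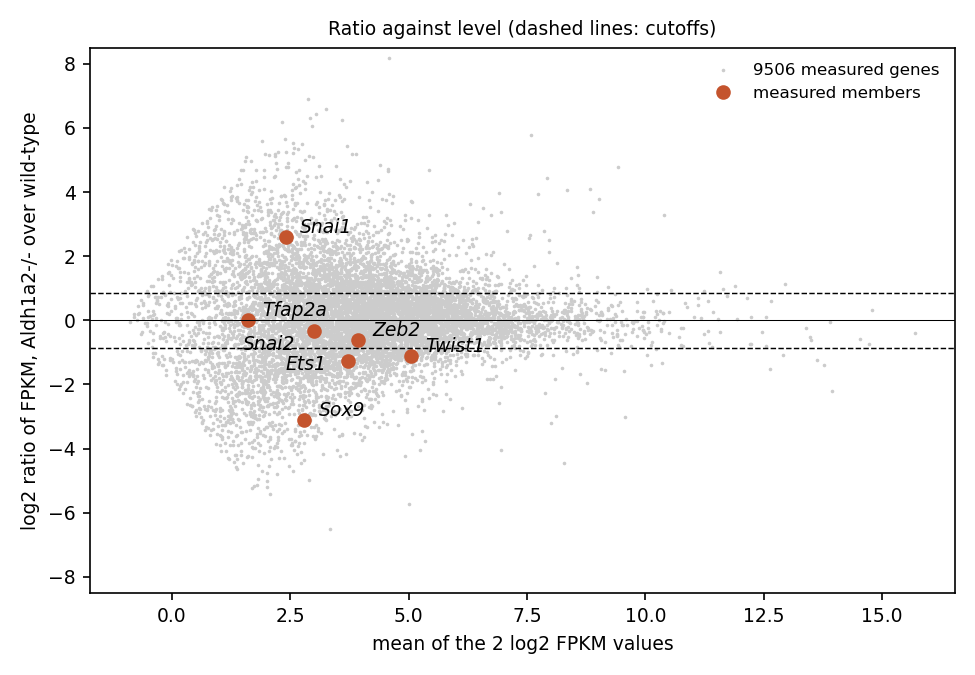
Log2 ratio (Aldh1a2-/- over wild-type) against mean log2 FPKM for the 9506 measured genes (grey) and the 7 measured crest and EMT factors (coloured and named); dashed lines mark the cutoffs of -0.85 and 0.85. The ratios of all genes spread more widely at low levels, and Sox9 and Snai1 lie farthest from 0 among the 7.

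Other genes of the crest programme were then described by lists with the members left out. The counts of this list and of those that follow stand beside 22.0% lower and 23.6% higher among all measured genes. Of 11 neural plate border factors 5 were measured, with 3 lower, 1 higher and a median log2 ratio of -1.06. Pax3, a border and dorsal neural tube factor, was at 18.1 FPKM in wild-type against 7.41 FPKM in Aldh1a2-/- (log2 ratio -1.28). It is also counted in the somite list below. Gbx2, a patterning factor of hindbrain and border, was at 28.0 and 7.26 FPKM (-1.95), and Zic2, a factor of the dorsal neural tube, at 8.88 and 4.24 FPKM (-1.06). Msx2, a target of BMP signalling, was the gene that was higher, at 7.28 and 18.4 FPKM (1.34), and Zic1 (4.30 FPKM in wild-type) and Zic5 (1.64 FPKM) had 0 as their listed value in Aldh1a2-/-.

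Of 16 other crest factors 12 were measured, with 7 lower, 2 higher and a median of -1.48, beside 22.0% lower and 23.6% higher among all measured genes. The 2 that were higher were Hand2, at 46.5 FPKM in wild-type against 98.4 FPKM in Aldh1a2-/- (1.08), and Mef2c, at 1.37 and 2.60 FPKM (0.92). Mycn, a MYC family gene of proliferating progenitors, was at 58.9 FPKM in wild-type against 13.0 FPKM in Aldh1a2-/- (-2.18), Lmo4, a LIM-only cofactor, at 53.9 and 14.4 FPKM (-1.90), and Sox5, a SoxD factor, at 5.73 and 1.14 FPKM (-2.33). Sox5 and Mycn, as well as Zeb1 above, are among the genes the study picked by their expression in these samples, so their directions are not independent evidence. Mitf, the melanocyte regulator that is also active in eye pigment epithelium, was listed at 0 in wild-type and at 13.8 FPKM in Aldh1a2-/-.

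Of 20 receptors, adhesion molecules and markers of migrating crest 15 were measured, with 4 lower, 2 higher and a median of -0.02, which became 0.13 on the TPM scale. On the FPKM scale 22.0% of all measured genes were lower and 23.6% higher. With upper quartile scaling 6 of the list were lower and 1 higher (median -0.12), and centred on the median of all genes 5 were lower and 2 higher. The endothelin receptor gene Ednrb was at 5.22 FPKM in wild-type against 0.791 FPKM in Aldh1a2-/- (-2.72), the melanoblast receptor gene Kit at 5.07 and 1.29 FPKM (-1.98), Pdgfra, a receptor of mesenchyme and crest, at 34.6 and 13.0 FPKM (-1.42), and the guidance receptor gene Robo1 at 18.8 and 7.09 FPKM (-1.40). The 2 that were higher were Ret, a receptor gene of enteric crest, at 3.23 and 6.13 FPKM (0.92), and Itga4, an integrin gene, at 1.49 and 2.96 FPKM (0.99). Of 11 other EMT factors 7 were measured, with 3 lower and none higher beside 22.0% and 23.6% of all measured genes, and a median of -0.69; Foxc2, a factor of paraxial mesoderm, was at 27.0 FPKM in wild-type against 1.15 FPKM in Aldh1a2-/- (-4.55), and Tcf3, an E protein that pairs with Twist1, was at 95.3 and 51.1 FPKM (-0.90), the last within the cutoffs on the TPM scale, while Tcf12, another E protein, was at 59.6 and 36.9 FPKM (-0.69), between the cutoffs.

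**Figure D4:**
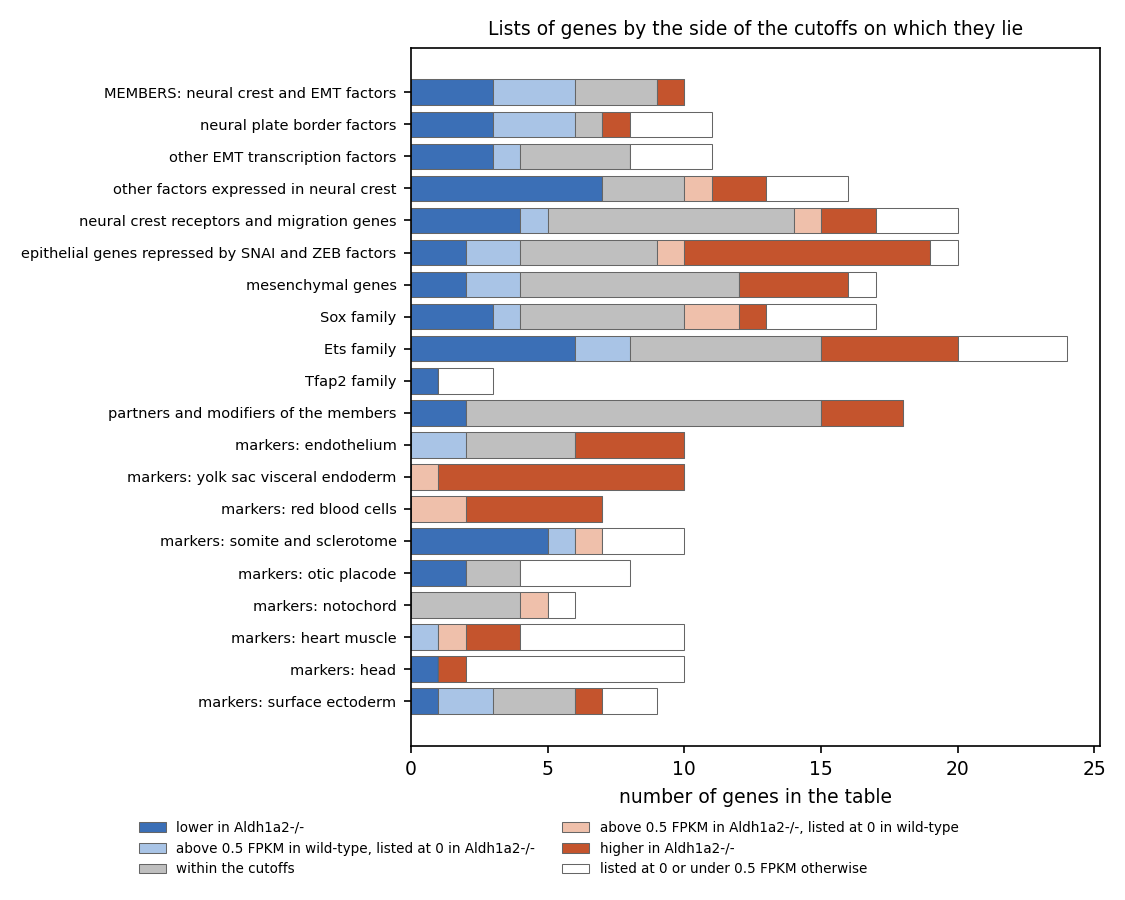
Number of genes of each list (1 stacked bar per list) that were lower, within the cutoffs or higher in Aldh1a2-/-, that were above 0.5 FPKM in 1 sample and listed at 0 in the other, or neither. The lower segment holds 3 of the 10 crest and EMT factors and 7 of the 16 other crest factors, and the higher segment 9 of the 20 epithelial genes.

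The genes that Snail, Twist and Zeb factors are known to repress or induce were described next. Of 20 epithelial genes 16 were measured, with 9 higher, 2 lower and a median log2 ratio of 1.07, beside 23.6% higher and 22.0% lower among all measured genes. The summed level of the 20 was 756 FPKM in wild-type against 1375 FPKM in Aldh1a2-/-. Most of both sums came from the keratin genes Krt8 (213 and 386 FPKM) and Krt18 (319 and 503 FPKM). Cdh1, the E-cadherin gene, was at 18.7 FPKM in wild-type against 67.0 FPKM in Aldh1a2-/- (1.85), Ocln at 0.997 and 40.6 FPKM (5.35), Crb3 at 6.42 and 37.0 FPKM (2.53), and Cdh3, the P-cadherin gene, at 4.77 and 23.6 FPKM (2.31). Spint1, a protease inhibitor of epithelia, was at 9.35 and 62.3 FPKM (2.74), and was chosen by the study on these samples. The ratio of Ocln rests on a wild-type value not far above the 0.5 FPKM minimum. Cldn3, a claudin gene, was listed at 0 in wild-type and at 8.95 FPKM in Aldh1a2-/-. Epcam, however, was at 40.8 and 33.9 FPKM (-0.27), and Esrp1 and Grhl2, regulators of epithelial splicing and transcription, were lower (-1.28 and -1.31). Ovol2 (0.590 FPKM in wild-type) and Rab25 (0.618 FPKM) were listed at 0 in Aldh1a2-/-. Snai1 and Cdh1, a repressor and its known target, were therefore both higher in Aldh1a2-/-, while Twist1 was lower.

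The E-box was found in 9 of the 12 epithelial genes with a RefSeq promoter (75.0%), in none of 11 mesenchymal genes, and in 1245 of 7243 measured genes (17.2%), 255 of 1553 lower genes (16.4%) and 350 of 1736 higher genes (20.2%). Of the 9 epithelial genes with it 8 were measured, with 5 higher, 3 between the cutoffs and none lower. No promoter was matched for Cdh1 or for Esrp1 and Grhl2, the 2 lower epithelial genes, so no lower gene could appear among the 8. Spint1, the only measured gene of the list with a promoter and no E-box, was also higher (2.74). Krt8, 1 of the 5, lay just past the cutoff (0.86). Among all measured genes 23.6% were higher and 22.0% lower. Several genes of the epithelial list are known for such promoter E-boxes, which is part of why they stand on it, so the share of 75.0% describes the list and not these samples.

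Of 17 mesenchymal genes 14 were measured, with 4 higher, 2 lower and a median of 0.10 (5 higher and 1 lower on the TPM scale). Among all measured genes 23.6% were higher and 22.0% lower on the FPKM scale. Postn, a matrix protein of mesenchyme and yolk sac mesoderm, was at 5.28 FPKM in wild-type against 42.8 FPKM in Aldh1a2-/- (3.02), Sparc, a matrix glycoprotein, at 45.1 and 172 FPKM (1.93), and the smooth muscle actin gene Acta2 at 13.3 and 46.0 FPKM (1.78), whereas Tagln, another smooth muscle gene, was lower (-1.32), as was the N-cadherin gene Cdh2 at the cutoff (-0.85). Both the epithelial and the mesenchymal lists thus summed to higher FPKM in Aldh1a2-/-, the latter at 716 and 1102 FPKM. Most of both mesenchymal sums came from Vim (259 and 380 FPKM) and Fn1 (157 and 279 FPKM), each within the cutoffs. The sums therefore describe a few abundant genes more than the lists.

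**Figure D5:**
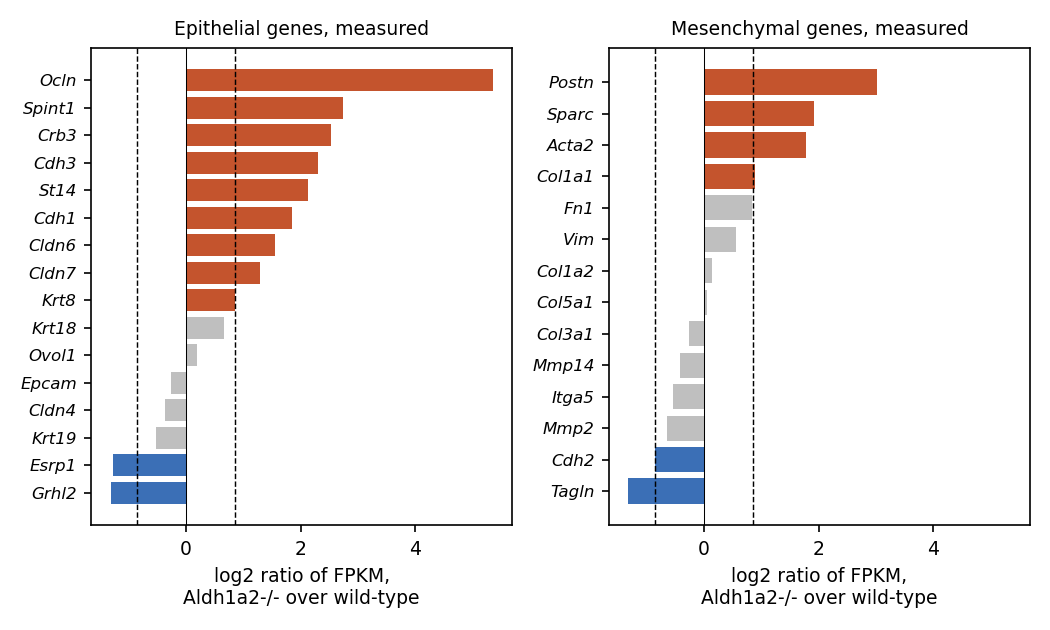
Log2 ratios (Aldh1a2-/- over wild-type) of the measured epithelial and mesenchymal genes, 1 bar per gene from 0, with the cutoffs of -0.85 and 0.85. Of the 16 epithelial genes 9 are past the upper cutoff and 2 past the lower, and of the 14 mesenchymal genes 4 and 2.

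Markers of other tissues, some of them further sites of these factors, were described in the same way. Yolk sac visceral endoderm genes, an epithelium outside the trunk, were higher for 9 of 9 measured genes (median 3.38) and summed to 451 FPKM in wild-type against 6731 FPKM in Aldh1a2-/-, with Amn listed at 0 and at 50.4 FPKM, and red blood cell genes were higher for 5 of 5 (median 4.09), with sums of 299 and 5851 FPKM. These stand beside the epithelial genes, Postn, Sparc and every ratio above, since FPKM is a share of the library; their part in the results was not tested. Somite and sclerotome genes were lower for 5 of 5 measured (median -1.95) with sums of 326 and 50.9 FPKM, among them Meox1 (106 and 28.6 FPKM) and Tcf15 (154 and 9.35 FPKM); Pax9 and Nkx3-2, which mark sclerotome together with Sox9, were listed at 0 in both samples and Pax1 at 0 and 1.67 FPKM. Pax3 and Foxc2 are counted here and also in the border and EMT lists above, so these lists are not separate. The part of somitic cells in the lower Sox9, Twist1, Foxc2 and Pax3 was not tested. Genes of the otic list, a further site of Sox9, had 2 of 4 measured lower with sums of 44.1 and 15.0 FPKM. The 2 were Pax2 at 4.24 and 0.670 FPKM (-2.66) and Gbx2 at 28.0 and 7.26 FPKM. Gbx2 is also on the border list and held most of the wild-type sum. Oc90, Dlx5, Otx1 and Fbxo2 were listed at 0 in both samples, and whether the trunks held otic tissue was not tested. Notochord genes had 4 of 4 between the cutoffs with sums of 48.5 and 65.4 FPKM.

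Endothelial genes, which share Ets1, had 4 of 8 measured higher and none lower (median 0.72) with sums of 114 and 117 FPKM, and its members went both ways: Emcn (7.14 FPKM) and Esam (6.20 FPKM) were listed at 0 in Aldh1a2-/-, while Eng (1.27 and 13.8 FPKM), Tek (6.33 and 17.7 FPKM), Flt1 (2.50 and 6.07 FPKM) and Cdh5 (8.52 and 17.8 FPKM) were higher. The part of endothelial cells in the lower Ets1 was not tested. Surface ectoderm genes, which share Tfap2a, had 1 of 5 measured lower and 1 higher (median -0.51) with sums of 570 and 903 FPKM. Most of both sums came from Krt8 (213 and 386 FPKM) and Krt18 (319 and 503 FPKM), keratin genes also on the epithelial list. Krt5 (2.43 and 0 FPKM) and Grhl3 (2.54 and 0.0122 FPKM) were under the minimum in Aldh1a2-/-. The lower one of the 5 was Tfap2c (-2.15). The higher one, the keratin gene Krt8 (0.86), was within the cutoffs under upper quartile scaling, where 2 were lower, and when centred on the median of all genes, where 1 was lower, and the epidermal regulator Trp63 was listed at 8.64 and 0 FPKM. Heart genes summed to 25.8 and 53.6 FPKM and went both ways. Tnnt2 (8.82 and 29.8 FPKM) and Myh7 (3.11 and 7.92 FPKM), the 2 that were measured, were higher. Below the minimum in 1 sample, Myl4 went from 7.15 FPKM to a listed value of 0, and Actc1 was at 6.13 and 0.0531 FPKM. Tnni1 (0.436 and 13.4 FPKM) and Myl7 (0 and 2.36 FPKM) stood the other way. Of 10 head genes 7 were listed at 0 in both samples, and Emx2 (7.04 and 1.75 FPKM) and Fgf15 (14.3 and 43.6 FPKM) stood in opposite directions.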

How the data were processed

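The authors deposited 1 table of FPKM values per gene for trunk RNA from 1 wild-type and 1 Aldh1a2-/- sample. Per the submitters' notes STAR, Cufflinks and Cuffdiff with mm10 were used, whereas the study's methods name TopHat and edgeR, and the labels and methods name different library kits, so the route to the deposited values is not settled here. FPKM is a share of each library, and a gene that rises steeply lowers the rest. The table also holds the authors' fold changes, test statistics, p-values, q-values and calls, which were not used. One row had been emptied.

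For genes exceeding 0.5 FPKM in each sample, log2 ratios were formed with no pseudocount, and genes past -0.85 or 0.85 were counted, with Python 3.11.15, pandas 2.3.3, numpy 2.4.6, scipy 1.17.1 and matplotlib 3.10.9. Fragments were estimated from the step of low FPKM values and the length of the longest coding transcript; Poisson intervals cover counting error only, since reads are not independent molecules. These numbers are approximate, since whole fractions of a step explain the values nearly as well; the largest well-scoring step was taken. The ratio and depth steps were tested on simulated data. No test was possible with 1 sample per genotype.

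The members and the 19 other lists were chosen with earlier results of these data known. The rule for named genes took all members, Aldh1a2, and from every other list up to 4 measured genes with the largest absolute log2 ratio plus genes of at least 5 FPKM in 1 sample listed at 0 in the other; of the marker lists for other tissues, not every gene it took is printed. Cdh1, Ret, Itga4, Actc1, Epcam, Twist2, Zeb2os, Sox8, the genes named as listed at 0 below that level and the remaining genes outside this rule, the pairs of relatives, the promoter search and the shares by level were chosen after their values were seen. Some genes of the lists are not reported here by name. Alternatives were the TPM scale, upper-quartile and median scaling, other minimum levels, pseudocounts and cutoffs.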

Additional observations from a re-analysis of the deposited data

How the results depend on the processing

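The 7 measured factors stayed on the same side of the cutoffs in 60 of 60 values recomputed under the alternatives, and none reversed. Part of the 60 could not differ. Another minimum in both samples leaves the ratio of a gene that stays in unchanged. The minimum in either sample with a pseudocount of 0.5 repeats, for these 7, the values of that pseudocount alone. Only the scalings and the pseudocounts thus bear on the 7 ratios. The log2 ratio ranged from -3.20 to -2.67 for Sox9, -1.38 to -1.12 for Ets1, -1.21 to -0.96 for Twist1, -0.72 to -0.47 for Zeb2, -0.43 to -0.18 for Snai2, -0.09 to 0.16 for Tfap2a and 2.15 to 2.75 for Snai1. On the TPM scale every ratio was 0.16 higher, the median of all measured genes moved from 0.02 to 0.18 and that of the 7 factors from -0.63 to -0.47. With a minimum of 5 FPKM in both samples 4 factors were measured, 2 were past a cutoff, none was higher, since Sox9, Snai1 and Tfap2a dropped out, and the median was -0.87. With the minimum in either sample and a pseudocount of 0.5, all 10 entered, 7 were past a cutoff (6 of them lower) and the median was -1.06, beside -0.10 for all genes; the 3 that were added are those listed at 0. With cutoffs of -1 and 1 the count stayed at 4. The share of all genes past a cutoff is not given here for these minimums and cutoffs. The 45.6% above holds for the main setting only, so these counts of factors have no share beside them. Among the lists, upper quartile scaling left 8 epithelial genes and 1 other crest factor higher and 3 otic genes lower, and centring left 8 epithelial genes higher and 3 otic genes lower; on the TPM scale the other Sox genes had 2 lower and 2 higher. No paired analysis was possible because each genotype has 1 sample, and for the same reason no sample could be left out. Depth limits Foxd3, Tfap2b, Sox10 and Snai1 most, at the lowest wild-type fragment estimates of the 10.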

Other observations

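The wider families of the factors showed both directions. Of 17 other Sox genes 10 were measured, with 3 lower, 1 higher and a median log2 ratio of -0.22, beside 22.0% lower and 23.6% higher among all measured genes. Sox11, a SoxC factor of neural progenitors, was at 68.9 FPKM in wild-type against 20.7 FPKM in Aldh1a2-/- (-1.74), and Sox17, an endoderm and endothelial factor, was at 2.22 and 11.4 FPKM (2.36). Sox2, the neural progenitor factor, lay just past the cutoff (-0.86), and the study placed its cutoff so as to take in Sox2; it was within the cutoffs on the TPM scale. Sox21, a SoxB factor, was listed at 5.15 and 0 FPKM, and Sox15 at 0 and 8.43 FPKM.

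Of 24 other Ets genes 18 were measured, with 6 lower, 5 higher and a median of -0.05, which became 0.10 with 5 lower and 6 higher on the TPM scale. The shares of all measured genes on the FPKM scale were 22.0% lower and 23.6% higher. Elk3, a repressor of the ternary complex group, was at 5.31 FPKM in wild-type against 0.501 FPKM in Aldh1a2-/- (-3.41), just over the minimum in the latter, Elk1 of the same group at 4.83 and 1.41 FPKM (-1.77), and Erg, an endothelial factor, at 1.25 and 5.31 FPKM (2.08), while Spdef, an epithelial factor, was listed at 5.86 and 0 FPKM.

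Of 18 partners and modifiers of the crest and EMT factors all were measured, with 2 lower, 3 higher and a median of -0.10, which became 0.05 with none lower on the TPM scale. For all measured genes the shares on the FPKM scale were 22.0% lower and 23.6% higher. The 3 that were higher were Cited2, a coactivator of AP-2 factors, at 52.6 FPKM in wild-type against 230.2 FPKM in Aldh1a2-/- (2.13), Kctd15, an inhibitor of AP-2 activity, at 11.0 and 38.4 FPKM (1.80), and Btrc, which takes part in the degradation of Snail, at 3.50 and 9.46 FPKM (1.44). Cited2 and Btrc are among the genes the study picked by their expression in these samples, so their directions are not independent evidence.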
